A study of Rattus norvegicus with 4 samples.

Results

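The late-numbered rat microRNAs are the 77 probes of the array named miR-3540 to miR-3599, with any letter and either arm and with no asterisk in the name, out of 679 rat microRNA (miRNA) probes. They were chosen by name alone, but earlier results of these data were known when the choice was made. Of the other 602 probes, 241 are named as passenger strands and 361 are other rat miRNAs. The samples were rat primary chondrocytes, the cells that make cartilage matrix, cultured at 200000 cells per ml, and the labels used here give no strain, age or joint of origin. In 3 samples the cells received interleukin-1β (IL-1β, a cytokine of inflammation) at 10 ng/ml and were collected after 6, 12 or 24 h. The control was untreated and collected at 0 h. There was 1 array for each of the 4 groups, with 5 spots per probe. With no replicate array the spread between samples is unknown, no p-value was computed, and the number of arrays limits the precision. Because the untreated sample was taken at 0 h, an effect of IL-1β and one of time in culture cannot be told apart.

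MicroRNAs are short RNAs cut from hairpin transcripts by Drosha and Dicer. One arm of the hairpin is loaded into an Argonaute protein and guides it to messenger RNAs through the seed, bases 2 to 8 of the mature miRNA. Names are given in the order in which miRNAs are registered, and the numbers described here belong to miRNAs first annotated by sequencing of rat RNA. In chondrocytes IL-1β is known to induce matrix-degrading proteases and to lower the production of cartilage collagen and aggrecan. No targets of these late-numbered miRNAs in cartilage are given in the sources used here.

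The 4 members that changed in any comparison and the other 4 detected on all arrays are shown first, since the results turn on them. Capitals mark the seed, and each sequence is that of the mature miRNA as the array files give it, 5′ to 3′:
miR-3573-3p: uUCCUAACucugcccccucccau
miR-3593-3p: cUUCAACCuuaagggggccuca
miR-3584-5p: gGGAGGAGuccaggaggc
miR-3588: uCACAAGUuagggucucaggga
miR-3574: uCAGCCGCugucacacgcacag
miR-3591: aACACCAUugucacacucca
miR-3564: uGGGAAAUgcaaagagggaag
miR-3563-5p: cGGUUUACcgucccacauac
The 77 members carried 77 distinct seeds, so no 2 of them form a seed family. Only 6 members (7.79%) shared a seed with any other rat probe on the array, against 179 of the other 602 probes (29.7%) among themselves. The 6 were miR-3563-5p with miR-299, miR-3563-3p with miR-299*, miR-3568 with miR-22*, miR-3573-5p with miR-423*, miR-3586-5p with miR-339-5p, and miR-3596d with passenger strands of let-7a, let-7b, let-7f and miR-98.

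Most of the members are antisense to another miRNA. Of the 77, 42 (54.5%) were complementary over at least 16 unbroken bases to another miRNA on the array, against 15 of the other 602 probes (2.49%) when the members were left out as partners. The complementary run was 16 to 22 bases long with a median of 20, and it took in the whole length of 25 members. The 42 had 42 different partners. A position in the rat genome (RefSeq, build GRCr8) was found for 41 of the 42, and all 41 overlapped an annotated miRNA on the opposite strand, so that both miRNAs of such a pair are annotated on the same stretch of DNA, on opposite strands. Pairs with a detected member on at least 2 arrays are shown here, with the complementary bases in capitals and each strand written 5′ to 3′:
miR-3588: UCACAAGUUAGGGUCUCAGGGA
miR-125b-5p: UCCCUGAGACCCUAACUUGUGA
miR-3596a: AACUAUACAACCUACUACCUCA
let-7a: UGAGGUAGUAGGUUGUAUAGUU
miR-3554: CUAUGCCAGCAUCUUGCCU
miR-31: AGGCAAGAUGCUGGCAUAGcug
miR-3574: UCAGCCGCUGUCACACGCACAG
miR-210: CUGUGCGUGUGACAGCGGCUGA
miR-3591: AACACCAUUGUCACACUCCA
miR-122: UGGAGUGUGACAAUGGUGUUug
miR-3563-5p: CGGUUUACCGUCCCACAUAc
miR-299*: UAUGUGGGACGGUAAACCGcu
Read backwards, the capitals of the second line of each pair are the complement of those of the first. The partners include let-7d, let-7e and let-7f (of miR-3596b, miR-3596c and miR-3596d), miR-29a, miR-29c and miR-29b (of miR-3556a, miR-3556b and miR-3587), miR-130a (of miR-3590-5p), miR-1 and miR-133a of muscle (of miR-3571 and miR-3582) and miR-9 of neural tissue (of miR-3597-3p).

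Exact mature sequences of 72 of the 77 members were found in the RefSeq table, 61 under the same name and 11 under another name, such as miR-31b for miR-3554 and miR-299b-5p for miR-3563-5p. Of these, 10 lie on the minus strand of chr6:134321165-134579493, opposite the miRNA cluster that holds miR-299, miR-382 and miR-409, which in mouse is the imprinted Dlk1-Meg3 region. Of those 10 only miR-3563-5p was detected on any array, by the rule given below. A further 13 lie on chromosome X, of which 4 were detected. Of all 77 members 42.9% were detected on at least 1 array, and of all 679 probes 52.6%. The counts by location are small, and no conclusion is drawn from them. The members that changed lie apart from each other. The sequence of miR-3573-3p is at chrX:68299322-68299344 on the plus strand, within the span of Efnb1, the gene of the membrane ligand ephrin-B1. That of miR-3584-5p is at chr1:256727582-256727599 on the minus strand, within the span of Itprip, whose product binds the inositol trisphosphate receptor. That of miR-3593-3p is at chr6:78987770-78987791 on the minus strand, outside any annotated gene of the table, and that of miR-3588 at chr11:29732588-29732609 on the minus strand, opposite miR-125b-5p and within the span of the uncharacterised gene LOC103693508. Strand was not considered for gene spans.

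Each array has 261 empty spots, and a miRNA was called detected where 3 or more of its 5 spots exceeded their 95th percentile. That limit was 151.3 scanner units in the control and 54.2, 96.4 and 86.2 units at 6, 12 and 24 h, and the empty spots' medians were 122.6, 46.2, 75.3 and 65.0 units in the same order. Summed miRNA spot intensity was 2945515, 3574863, 4713074 and 4191178 units. Among all 679 probes, 187, 355, 240 and 210 were detected. The chondrocyte marker list (miR-140, miR-140*, miR-455 and miR-455*) had 3 of 4 members detected in the control and 4 of 4 at each later time, with summed intensities above the empty spots between 9979 and 14017 units. Of the marker lists of other cells, that of epithelium (5 miRNAs) and miR-122 of liver were not detected on any array. The blood list had 0, 1, 1 and 0 of 6 detected, the endothelial list 0, 1, 1 and 1 of 2, the muscle list 1, 3, 1 and 1 of 4 and the neural list 1, 2, 1 and 1 of 3. Summed intensities of these lists at 0, 6, 12 and 24 h ran from 17.9 to 72.1 units (blood), 16.1 to 162.6 units (endothelium), 624.1 to 980.5 units (muscle) and 199.3 to 461.5 units (neural), and their part in the results was not tested.

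Most late-numbered miRNAs were at the level of the empty spots. Of the 77, 44 were detected on no array, 33 (42.9%) on at least 1 and 6 (7.79%) on all 4, against 52.6% and 24.0% of all 679 probes. Detected members numbered 8 in the control (10.4%) and 33 at 6 h (42.9%), 11 at 12 h (14.3%) and 11 at 24 h (14.3%). The other rat miRNAs without an asterisk stood at 37.4%, 60.9%, 46.0% and 41.0%, and the passenger strands at 18.3%, 42.3%, 26.1% and 21.2%, in that order of arrays. The members' share was thus below that of the other rat miRNAs on each array. On the 6 h array it was close to that of the passenger strands. Together the 77 members held 0.837%, 0.970%, 0.703% and 0.568% of the signal above the empty spots.

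**Figure D1:**
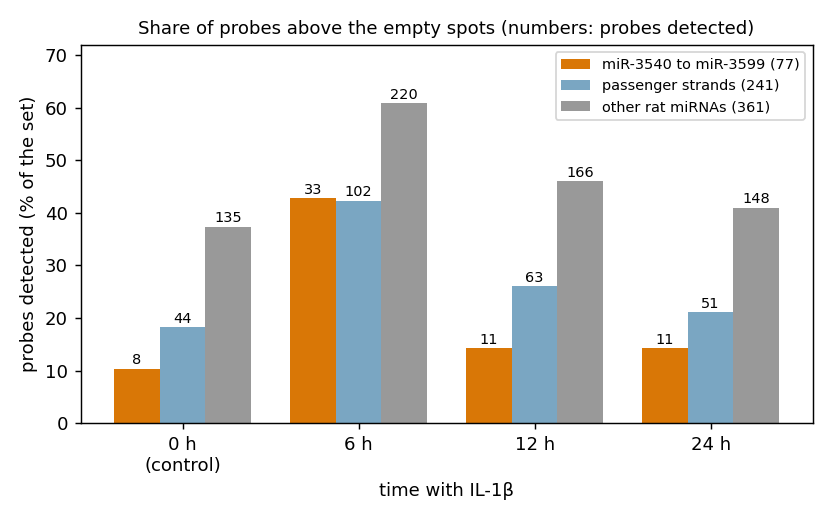
The bars give the share of probes detected on each array (y axis, percent of the set) at 0, 6, 12 and 24 h, for miR-3540 to miR-3599, passenger strands and other rat miRNAs, with the number of detected probes above each bar. The late-numbered miRNAs stand at 8, 33, 11 and 11 of 77.

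The 33 members at 6 h went with the lowest limit of the 4 arrays. All 33 members detected anywhere were detected at 6 h, and 19 of them on that array alone, beside 101 of all 679 probes. The mean spot intensities of the 19 were 52.3 to 67.7 units, between 0.966 and 1.25 times the limit, and 11 of them passed with 3 spots, 7 with 4 and 1 with 5. When instead 1 log2 level (6.89, the highest of the 4 arrays' lowest detected levels) was asked of normalised values on all arrays, 11, 8, 8 and 11 members lay above it at 0, 6, 12 and 24 h. Of all 679 probes, 202, 201, 202 and 207 lay above it. Quantile normalization gives the arrays the same distribution of spot values, so a general excess at 6 h could not appear on that scale.

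The 19 seen at 6 h alone included both arms of no hairpin, and 7 of them are antisense to another miRNA. Their mean intensity at 6 h is given here for each, against the limit of 54.2 units. It was 67.7 units for miR-3594-3p, 66.8 units for miR-3568, 65.7 units for miR-3541, 64.1 units for miR-3562, 62.4 units for miR-3558-5p and 61.1 units for miR-3546. It was 58.1 units for miR-3586-5p, 57.8 units for miR-3542, 57.6 units for miR-3582, 57.0 units for miR-3549, 56.5 units for miR-3596b and 56.3 units for miR-3550. These lie within a few units of each other and of the limit. For the last 7, the means were 56.2 units for miR-3575, 56.2 units for miR-3559-3p, 54.4 units for miR-3561-3p, 53.9 units for miR-3583-3p, 53.7 units for miR-3557-3p, 53.4 units for miR-3547 and 52.3 units for miR-3571. The last 4 means are below the limit, since 3 of 5 spots were enough for a call.

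**Figure D2:**
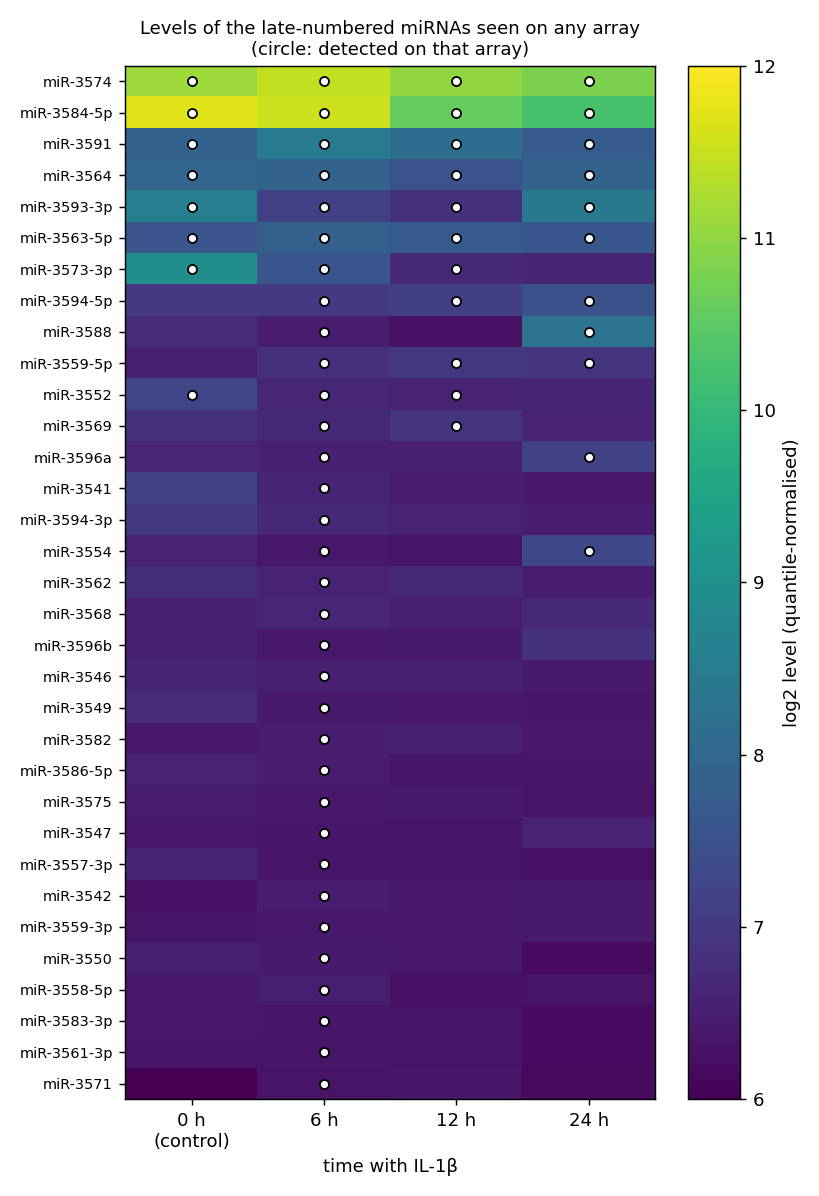
Rows are the 33 members detected on at least 1 array, ordered by mean level, and columns the arrays at 0, 6, 12 and 24 h; colour gives the quantile-normalised log2 level and a circle marks detection on that array. Only miR-3574 and miR-3584-5p stand above a log2 level of 10, and 19 rows have a circle at 6 h alone.

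Among the detected members, 2 stood well above the rest. Levels are given as quantile-normalised log2 values, and intensities as the mean ± SD of the 5 spots on each array. The intensity of miR-3574, antisense to the hypoxia-induced miR-210, was 1401 ± 161 units in the control and 2575 ± 361, 3158 ± 446 and 1917 ± 213 units at 6, 12 and 24 h. After normalization its log2 level was 11.12, 11.45, 10.99 and 10.81, which placed it 53rd, 47th, 53rd and 57th among the 679 probes. The intensity of miR-3584-5p was 2091 ± 578, 3059 ± 1206, 2306 ± 697 and 1457 ± 275 units at 0, 6, 12 and 24 h, and its log2 level 11.70, 11.54, 10.58 and 10.26. It ranked 44th and 45th on the first arrays and 60th and 66th on the later ones. Before normalization the range of its control spots overlapped that of each treated array.

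The 4 further members detected on all arrays had much lower levels. The log2 level of miR-3591 was 7.89, 8.46, 8.17 and 7.76 at 0, 6, 12 and 24 h, that of miR-3564 was 7.95, 7.90, 7.53 and 7.91, and that of miR-3563-5p was 7.58, 7.84, 7.70 and 7.62. These 3 kept within 1 log2 unit over the 4 arrays, whereas the fourth, miR-3593-3p, did not and is described with the changes. Of the members seen on 3 arrays, miR-3594-5p stood at 7.002, 7.02, 7.11 and 7.48 (not detected in the control), miR-3559-5p at 6.50, 6.83, 6.98 and 6.91 (not detected in the control) and miR-3552 at 7.25, 6.65, 6.60 and 6.62 (not detected at 24 h). The gene spans that hold them are those of the centrosomal protein gene Cep131, the palmitoyltransferase gene Zdhhc15 and the serotonin receptor gene Htr2c. miR-3569, within the span of the histone methyltransferase gene Kmt2b, was detected at 6 and 12 h, with levels of 6.83, 6.68, 6.89 and 6.58.

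The first question was which members differed between treated cells and the control. Comparisons used the miRNAs that either array detected, and the call of a change asked for a log2 difference of at least 1 (2-fold) that was also over 2 times the standard error from the repeat spots. Each ± on a log2 change is that spot error, which does not cover differences between cultures. At 6 h, 2 of 33 members compared were changed, both lower, with 3.66% of all 355 miRNAs compared called in either direction and 2.25% called lower. At 12 h, 3 of 11 members were changed, all lower, with 9.64% of all 249 called and 4.02% called lower. At 24 h 3 of 13 were changed, 2 lower and 1 higher, with 13.7% of all 233 called, 5.58% lower and 8.15% higher. The 3 members at 12 and at 24 h are a larger share than the background, but the counts are small. At 24 h, requiring detection on both arrays left 1 changed member, as miR-3573-3p and miR-3588 were each undetected on 1 of them. miR-3584-5p, called at both times, was not called with a correction for GC content or without normalization between arrays. No conclusion is therefore drawn from the larger share. The median log2 change of the members compared was -0.09, -0.12 and -0.04 at 6, 12 and 24 h, and that of all miRNAs compared 0.03, 0.09 and 0.02.

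miR-3573-3p was lower at every time after IL-1β. Its spots averaged 417.8 ± 62.5 units in the control and 140.3 ± 49.2, 103.3 ± 30.7 and 67.0 ± 7.74 units at 6, 12 and 24 h. The lowest control spot, at 345.9 units, was above the highest spot of each treated array (218.1, 145.6 and 74.5 units). On the normalised scale the log2 change was -1.37 ± 0.21 at 6 h, a 2.58-fold lower level, and -2.27 ± 0.18 at 12 h, 4.83-fold lower. At 24 h none of its 5 spots passed the limit, and the change of -2.35 ± 0.11 is given as at least 4.57-fold lower. Of all 679 probes 4 were changed and lower at all 3 times, and miR-3573-3p was the only late-numbered one. The other arm of the hairpin, miR-3573-5p, was not detected on any array.

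miR-3593-3p was lower at 6 and 12 h and near the control at 24 h. Its spots averaged 325.6 ± 48.6 units in the control, 98.6 ± 24.1 units at 6 h, 114.1 ± 14.8 units at 12 h and 367.6 ± 50.9 units at 24 h. The spots of 6 and 12 h reached at most 137.0 and 136.1 units and did not overlap those of the control, which began at 255.0 units, or those of 24 h, which began at 297.3 units. The log2 change was -1.39 ± 0.19 at 6 h (2.61-fold lower), -1.72 ± 0.14 at 12 h (3.29-fold lower) and -0.13 ± 0.15 at 24 h, where it was not called. Over all probes 7 were lower at both 6 and 12 h, and 3 of these, miR-3593-3p, miR-290 and miR-455*, were not called changed at 24 h. Nearest probes in sequence were sought among those with a signal above the empty spots, averaged over the 4 arrays, at least 4 times higher. For miR-3593-3p this was miR-290, at 8 edits, with log2 levels of 10.56, 8.35, 7.51 and 10.33 at 0, 6, 12 and 24 h. For the members detected on any array the nearest such probe lay at 6 to 11 edits. How far these probes bind each other's miRNA was not tested. The other arm, miR-3593-5p, was not detected.

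miR-3584-5p, the brightest member of the control array, was called lower at 12 and 24 h. Its log2 change was -0.15 ± 0.29 at 6 h, -1.12 ± 0.24 at 12 h (2.17-fold lower) and -1.44 ± 0.24 at 24 h (2.70-fold lower). Before normalization the ranges of its spots overlapped between the arrays. They ran from 1565 to 3199 units at 12 h and from 1183 to 1831 units at 24 h, against 1566 to 2765 units in the control. Each spot has the same position on all arrays. Compared position by position, every spot was lower at 24 h than in the control, whereas most were higher at 12 h. The spot error does not use this pairing. Without normalization between arrays the change at 12 h was 0.14, of the opposite sign, and with a correction for GC content it was -0.37 at 12 h and -0.64 at 24 h, below the 2-fold rule. Its GC content, 72.2%, is the highest of the 77 members (median 47.8%), and over all miRNAs compared the log2 change fell with GC content at Pearson's r = -0.43, -0.47 and -0.44 at 6, 12 and 24 h, across miRNAs that share the same arrays. The part of GC content in its change was not tested beyond this correction. The other arm, miR-3584-3p, was not detected on any array.

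miR-3588 was the only member called higher than the control, at 24 h. Its spots averaged 334.5 ± 125.3 units at 24 h, against 140.2 ± 13.5 units in the control. The spots at 24 h ran from 248.0 to 552.1 units and those of the control from 128.1 to 160.1 units, with no overlap. At 6 and 12 h they averaged 58.7 ± 10.0 and 70.5 ± 15.6 units, with 3 and 0 of 5 spots above the limit. As the miRNA was not detected in the control, where 1 spot passed the limit, the log2 change of 1.52 ± 0.20 is given as at least 2.63-fold higher at 24 h on the quantile-normalised scale. At 6 h its change was -0.29 ± 0.13, which was not called, and 12 h was not compared with the control, since neither array detected it. Spots next to those of miR-3588 on the array were dim, with medians of 47.5 units at 24 h and 90.6 units in the control. Scaling each array by its median over the miRNAs that all arrays detected left a change of 0.80 at 24 h, below the rule and below that bound, so the bound holds for its own scale only.

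**Figure D3:**
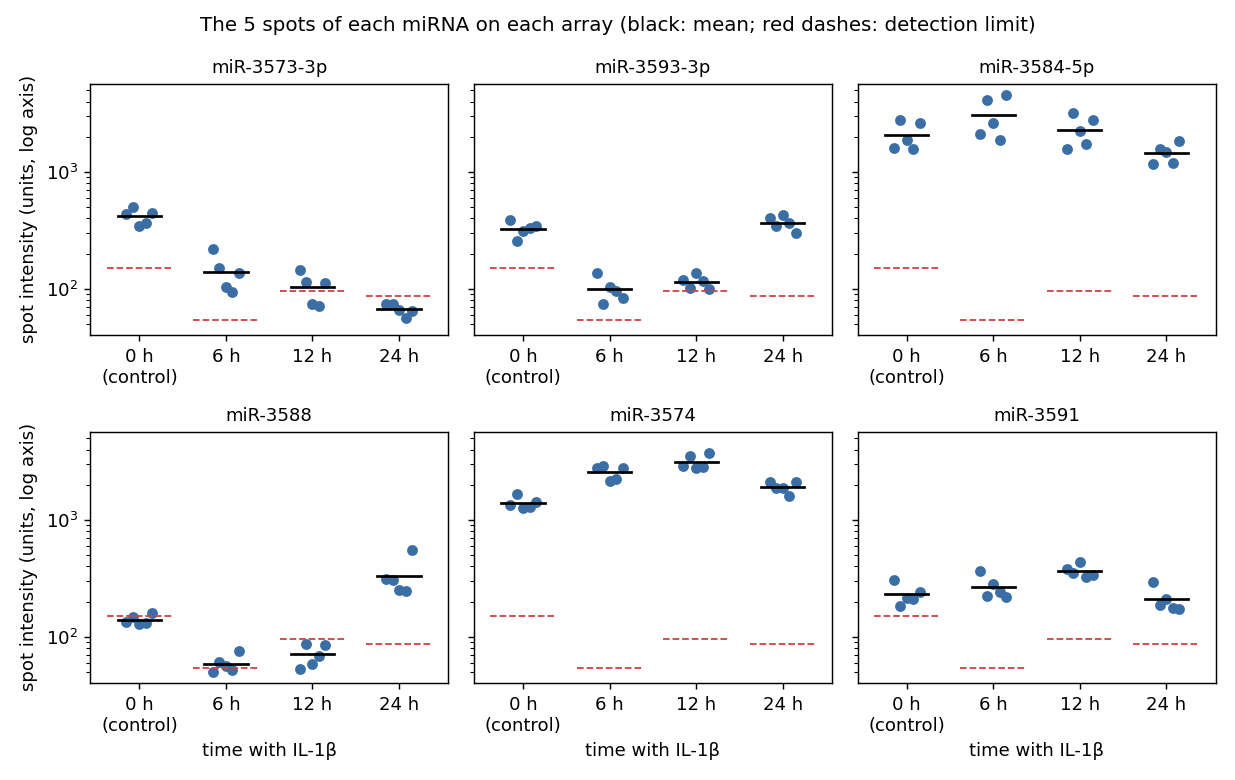
Each panel shows the 5 spots (points) and their mean (black line) of 1 miRNA on the arrays at 0, 6, 12 and 24 h, in scanner units on a log axis, with the array's detection limit as red dashes. The spots of miR-3573-3p lie lower on each treated array than in the control, those of miR-3593-3p only at 6 and 12 h, and those of miR-3588 stand above the limit in all 5 spots at 24 h alone.

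The remaining members detected on all arrays were not called at any time. The log2 change of miR-3574 was 0.33 ± 0.14, -0.12 ± 0.12 and -0.30 ± 0.12 at 6, 12 and 24 h, that of miR-3591 was 0.57 ± 0.21, 0.28 ± 0.18 and -0.13 ± 0.21, and that of miR-3564 was -0.05 ± 0.12, -0.42 ± 0.13 and -0.04 ± 0.11. For miR-3563-5p it was 0.26 ± 0.12, 0.12 ± 0.09 and 0.04 ± 0.07. These sizes are under the 2-fold rule at each time. Among the alternatives run, miR-3574 was called only at 12 h without normalization between arrays, at 1.18.

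**Figure D4:**
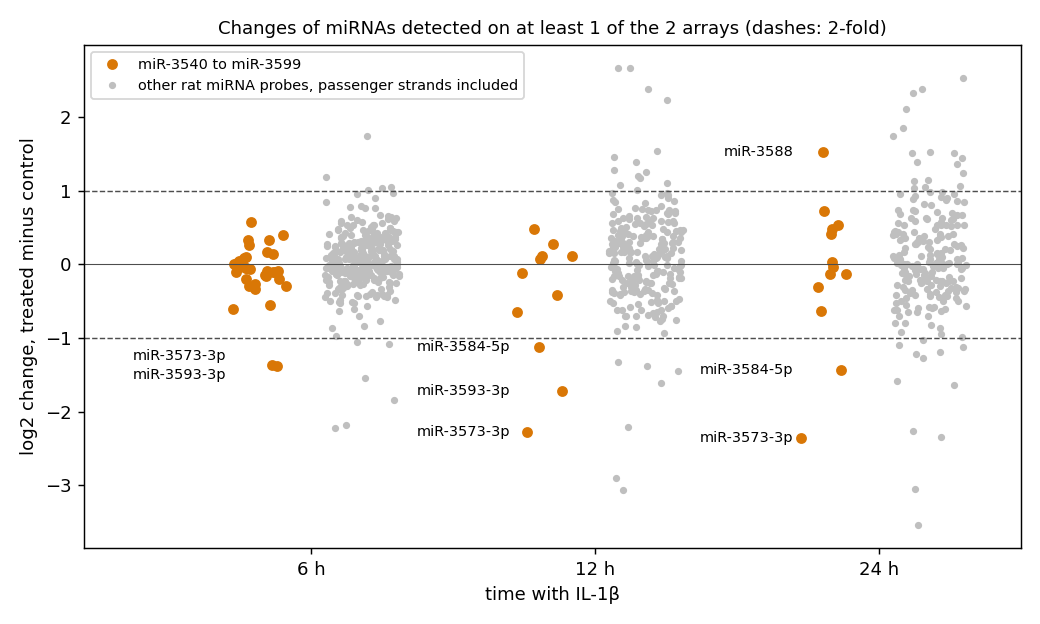
Points give the log2 change of each miRNA compared, treated minus control (y axis), at 6, 12 and 24 h, with miR-3540 to miR-3599 on the left of each time and all other probes on the right; dashes mark 2-fold. Called members are named: miR-3573-3p lies below -1 at all 3 times and miR-3588 above 1 at 24 h.

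The second question was how the treated arrays differed from each other. Between 12 h and 6 h, 0 of 33 members were changed, with 1.41% of all 355 miRNAs called. The largest differences there were -0.97 ± 0.31 for miR-3584-5p and -0.90 ± 0.25 for miR-3573-3p. Between 24 h and 6 h, 3 of 33 were changed, with 7% of all 357 called, 3.92% higher and 3.08% lower. Of the 3, miR-3588 was higher by 1.81 ± 0.21 (3.51-fold), miR-3593-3p was higher by 1.26 ± 0.16 (2.39-fold) and miR-3584-5p was lower, at -1.28 ± 0.32 (2.43-fold). Between 24 h and 12 h, 2 of 14 were changed, both higher, with 9.68% of all 248 called and 4.44% called higher. miR-3588 was higher by 2.01 ± 0.22, at least 3.21-fold, and miR-3593-3p by 1.59 ± 0.10, or 3.02-fold. These comparisons share arrays with each other and with those against the control.

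Arms of the same hairpin could be compared for 17 hairpins that have both arms among the members. In 2 of them, miR-3559 and miR-3594, both arms were detected, in 9 only 1 arm, and in 6 neither. The 2 with both arms had the second arm at 6 h alone, so that on each of the other arrays at most 1 arm of any hairpin was seen. The 5p arm of miR-3584 was above its 3p arm by 5.02, 5.16, 4.15 and 3.94 log2 units at 0, 6, 12 and 24 h, and the 5p arm of miR-3563 above its 3p arm by 1.25 to 1.48. For miR-3573 and miR-3593 it was the 3p arm that was seen. Levels of different probes also reflect how well each probe binds, so these gaps describe signal and not copy numbers.

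Fewer of the antisense members were detected on at least 1 array. Of the 42 antisense members 13 (31.0%) were so detected, and of the other 35 members 20 (57.1%). These counts equal those at 6 h. They include the 19 members seen at 6 h alone, near the limit, of which 7 are antisense. The antisense members numbered 3, 13, 3 and 6 detected at 0, 6, 12 and 24 h, and the others 5, 20, 8 and 5. In each group 3 were detected on all 4 arrays. Of the 13 detected antisense members 1, miR-3588, changed in any comparison, and of the 20 other detected members 3. No share of all miRNAs was taken over the comparisons together, so no difference is read from these counts. Median GC content was 46.3% for the antisense members and 52.6% for the others. At 24 h the shares were equal, at 14.3% of the 42 and of the 35.

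Pairs with both strands detected were counted next. The partner was detected for 18, 29, 21 and 21 of the 42 pairs at 0, 6, 12 and 24 h, and both strands for 1, 11, 1 and 4 pairs. In 2 pairs on each array only the antisense member was detected. Across the 42 pairs Spearman's rho between the levels of the pair was 0.32, 0.28, 0.22 and 0.41, a weak relation between probes on the same array. Where the partner was detected, it was above its antisense member by a median of 3.35, 1.25, 2.98 and 3.15 log2 units.

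Detected antisense members fell on both sides of their partners. miR-3574 was the brighter of its pair on all arrays, at 11.12, 11.45, 10.99 and 10.81 against 10.25, 10.03, 9.99 and 10.18 for miR-210 at 0, 6, 12 and 24 h. miR-3591, at 7.89, 8.46, 8.17 and 7.76, had a partner that was not detected on any array, the liver miRNA miR-122, whose log2 levels were 6.22, 6.34, 6.28 and 6.13. miR-3563-5p was detected on all arrays and its partner miR-299* at 6 h alone. That member also shares 19 unbroken bases with miR-299 itself, from which it differs by 3 edits, and how far each probe binds the other miRNA was not tested. miR-299 stood at 6.89, 7.37, 7.47 and 7.22, below miR-3563-5p at 7.58, 7.84, 7.70 and 7.62. Its shared bases are in capitals:
miR-3563-5p: cGGUUUACCGUCCCACAUAC
miR-299: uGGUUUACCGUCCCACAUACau

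The partners of miR-3588, miR-3554 and miR-3596a are among the brightest miRNAs of these cells. The log2 level of miR-125b-5p was 15.26, 15.24, 15.09 and 15.09 at 0, 6, 12 and 24 h, while that of miR-3588 was 6.77, 6.47, 6.27 and 8.28. Between 24 h and the control miR-125b-5p differed by -0.16 ± 0.05 and miR-3588 by 1.52 ± 0.20. The level of miR-31 was 12.47, 12.29, 12.12 and 13.14, and that of miR-3554 was 6.59, 6.39, 6.33 and 7.31, detected at 6 and 24 h. At 24 h miR-3554 was higher than at 12 h by 0.97 ± 0.08 and than in the control by 0.72 ± 0.09, both under the 2-fold rule. Its spots averaged 141.8 ± 8.79 units at 24 h, against 126.3 ± 15.7 units in the control, on an array whose empty spots were dimmer. For let-7a the levels were 14.64, 14.75, 14.70 and 14.33 and for miR-3596a 6.65, 6.55, 6.51 and 7.18, which was not called. Spots next to those of miR-3596a had a median of 153.2 units at 24 h, brighter than the miRNA's own mean of 125.9 ± 20.3 units there, and 139.9 units in the control. The part of these neighbours in its value was not tested.

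Some partners changed while the antisense member was not detected. miR-29c was higher by 1.18 ± 0.23, 2.67 ± 0.19 and 1.85 ± 0.27 at 6, 12 and 24 h, and miR-29b by 1.53 ± 0.17 at 12 h and 2.33 ± 0.21 at 24 h. Their antisense members, miR-3556b and miR-3587, were not detected on any array. The miR-29 family is known to act on messenger RNAs of collagens. let-7e was higher by 1.17 ± 0.14 at 12 h, and its antisense member miR-3596c was not detected. No pair had both strands called in the same comparison with the control. Among the antisense members only miR-3588 was called against the control, at 24 h, so this rests on its pair alone. For the pairs named here a call of both strands could not occur, since a miRNA that neither array detected was not compared.

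**Figure D5:**
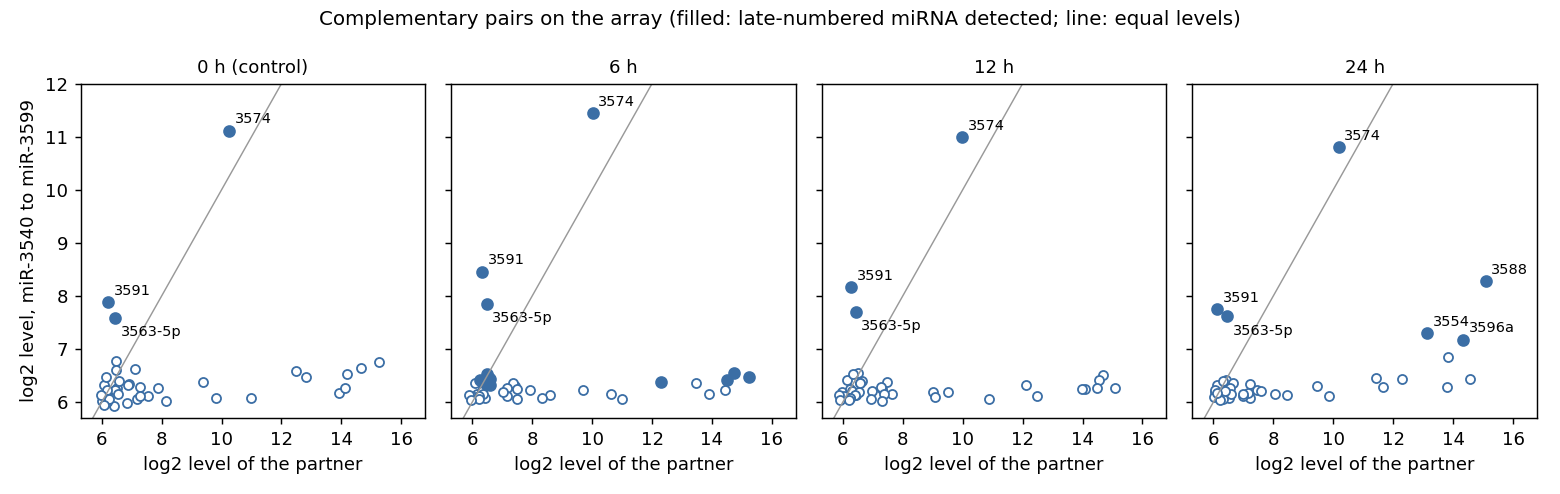
Each point is 1 of 42 complementary pairs, with the log2 level of the partner on the x axis and that of the late-numbered miRNA on the y axis, for the arrays at 0, 6, 12 and 24 h; filled points are detected late-numbered miRNAs and the line marks equal levels. miR-3574, miR-3591 and miR-3563-5p lie above the line on each array, and miR-3588, miR-3554 and miR-3596a are filled at the right at 24 h.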

How the data were processed

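Small RNAs had been tailed and ligated to a tag stained with Cy5, per the labels' protocols, from total RNA of 4 samples. The authors deposited, for each array, 3968 spot intensities (means, linear scale) with no background taken off, and a table of 1 processed intensity per miRNA whose normalization is not given in the sources used here (its lowest values are 0, 0.02, 0.09 and 0.65). Scanner and image software are not given there either. All 3968 spots were corrected with normexp (offset 50, limma 3.58.1, R 4.3.3) and converted to log2. The 3395 miRNA spots were then quantile-normalised over the 4 arrays and averaged per probe over 5 spots. The offset makes folds smaller than true ones, most of all near the limit. Where an array did not detect a miRNA, the lowest detected log2 level there (6.89, 6.31, 6.60 and 6.77 at 0, 6, 12 and 24 h), or its own if higher, gave a bound. Complementarity, edits and GC content came from the mature sequences in the files, and positions from RefSeq (GRCr8); 5 members (miR-3568, miR-3577, miR-3586-3p, miR-3586-5p and miR-3593-5p) had no exact match. Python 3.11.15, pandas 2.3.3, numpy 2.4.6 and matplotlib 3.10.9 were used. The call rule was tested on simulated copies of the control array with spot noise, which do not cover the real arrays' differences in background. The members, marker lists and rules were chosen with earlier results of these data known. Members detected on at least 1 array or called were named, and other miRNAs only as antisense partner, other arm, seed sharer, nearest probe or marker; the miRNAs named as lower at 6 and 12 h, and the partners that changed, were chosen after their values were seen.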

Additional observations from a re-analysis of the deposited data

Results flagged for a closer look

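miR-3588 was called higher than the control at 24 h, while its values at 6 and 12 h lay on the other side of the control's. Its change from the control at 24 h exceeded that at 6 h by 1.81 and that at 12 h by 2.01 on the log2 scale. With 1 array per time this difference between times was not tested. The lower side is weakly founded: the change at 6 h was not called, and the miRNA was detected neither in the control nor at 12 h, so that those values are at background.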

How the results depend on the processing

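The calls of miR-3573-3p and miR-3593-3p kept their direction and size rule under each other background correction, scaling, spot summary and GC correction run; their log2 changes ranged from -2.03 to -1.11 and from -2.44 to -1.32 at 6 h, and from -5.64 to -1.88 and from -3.50 to -1.35 at 12 h. Among those, the call of miR-3588 at 24 h was lost with median scaling (0.80; range to 3.72). Detection on both arrays drops miR-3573-3p and miR-3588 at 24 h against the control, as 1 of the arrays did not detect them. miR-3584-5p at 12 h was not called with cyclic loess (-0.75), median scaling (-0.63), GC correction (-0.37) or no normalization (0.14, reversed in sign), at 24 h with median scaling (-0.97), no normalization (-0.48) or GC correction (-0.64), and between 24 and 6 h with no normalization (-0.99) or the authors' values (-0.79). Members detected at 6 h numbered 33, but 12 when all 5 spots had to pass, 11 with the limit at the highest empty spot and 8 at the common level, which was added after seeing the data; 13 of 16 detection counts stayed within 1.5 times. Of 87 counts of changed members 68 stayed so. The others were these. Plain subtraction of the empty-spot median gave 8, 5 and 8 changed members at 6, 12 and 24 h against the control, 3 between 12 and 6 h, 17 between 24 and 6 h and 5 between 24 and 12 h. Median scaling gave 4 at 6 h against the control and 2 between 12 and 6 h. No background correction, and likewise an offset of 16, gave 1 between 12 and 6 h and 5 between 24 and 6 h, and cyclic loess 5 between 24 and 6 h. The 1.5-fold rule gave 5 at 24 h against the control, 2 between 12 and 6 h, 8 between 24 and 6 h and 4 between 24 and 12 h. Asking for detection on both arrays left 1 at 24 h against the control and 1 between 24 and 12 h, since fewer miRNAs were then compared; the cause was not tested for the others. The median change of all miRNAs compared, 0.03, 0.09 and 0.02 at 6, 12 and 24 h, was -0.40, -0.37 and -0.19 with median scaling and -0.32, 0.40 and 0.30 with no normalization. No analysis with paired samples was possible because each group is 1 array, and spots at the same array position were not paired. Signals near the empty spots limit what can be said of 71 of the 77 members, those not detected on every array.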

Other observations

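Antisense members with bright partners tended to lie higher at 24 h, as a description made after the values were seen. Between 24 and 12 h, the 10 antisense members whose partners had the highest mean level had a median log2 difference of 0.30 (range -0.18 to 2.01, 9 of 10 positive), and the other 32 one of -0.02 (11 of 32 positive). Between 24 h and the control the medians were 0.29 (8 of 10 positive) and -0.0012 (14 of 32 positive), and between 12 and 6 h -0.05 (4 of 10 positive) and -0.0051 (14 of 32 positive). The direction was the other way earlier. Between 6 h and the control the medians were -0.08 (2 of 10 positive) and -0.00054 (16 of 32 positive). Between 12 h and the control they were -0.11 (3 of 10 positive) and -0.01 (14 of 32 positive). The 10 include miR-3596a, miR-3596b, miR-3596c and miR-3596d, which are alike in sequence, and likewise miR-3556a and miR-3556b. All were read on the same arrays, so the counts of positive members are not counts of independent ones. Most of these members were not detected, and the part of the partners' brightness in these differences was not tested.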
